A study of Mus musculus with 12 samples.

Results

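The genes described here are 10 genes associated with lipid-laden (foamy) macrophages: the receptor Trem2 and its adaptor Tyrobp, the related receptor Trem1, the surface proteins Gpnmb, Cd9, Cd63 and Plaur, and the secreted proteins Spp1, Lgals3 and Cd5l. They were chosen by symbol as genes known from such cells in arterial plaques, and all 10 were found among the 23438 genes that the deposited table lists. RNA was sequenced from primary mouse macrophages (BMDMs), which are differentiated in culture out of bone marrow precursors and were collected on day 7. The donors were C57 mice with atherosclerosis, and the groups were 7 wild-type (WT) libraries and 5 libraries with the genotype Baf60a KO. Baf60a is the product of Smarcd1, a subunit of the SWI/SNF complex, which moves nucleosomes along DNA. All groups shared the strain, the disease, the differentiation and the day. The sources used here do not give how the knockout was made, in which cells it acts, the age of the mice, or whether libraries came from separate mice, so the spread between libraries that p-values measure may be purely technical. Values are TPM, a share of all transcripts of a library after correction for gene length. TPM keeps no sequencing depth, so no counting interval is given.

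Trem2 binds lipids and lipoprotein particles at the cell surface and signals through Tyrobp (DAP12), whose phosphorylated tail recruits the kinase Syk. In arterial plaques, macrophages rich in Trem2 are largely lipid-filled foam cells, which also carry Gpnmb, Spp1, Cd9 and Cd63. Trem1 uses the same adaptor but amplifies inflammatory responses, and it is best known from neutrophils and monocytes.

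The sequences upstream of 3 of these genes are printed because the genes lay on different sides of the other WT libraries in WT replicates 2, 3 and 4, as the values below show: Trem2 below them, Gpnmb and Cd5l above. Each run holds the 250 bases before the RefSeq gene start, 5′ to 3′ on the gene's strand, from the GRCm38.p6 build. Capitals mark matches on either strand to 4 short motifs: CACGTG (the E-box of the MiT/TFE factors), TGANTCA (AP-1), GAGGAA (a core of PU.1 sites) and AGGTCA (a nuclear receptor half-site).
Trem2, chr17:48346151-48346400, plus strand: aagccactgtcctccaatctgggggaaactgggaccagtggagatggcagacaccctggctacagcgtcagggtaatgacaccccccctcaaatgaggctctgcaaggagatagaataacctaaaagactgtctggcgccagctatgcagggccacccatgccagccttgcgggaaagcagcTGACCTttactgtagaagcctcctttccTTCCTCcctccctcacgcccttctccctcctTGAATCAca
Gpnmb, chr6:49036268-49036517, plus strand: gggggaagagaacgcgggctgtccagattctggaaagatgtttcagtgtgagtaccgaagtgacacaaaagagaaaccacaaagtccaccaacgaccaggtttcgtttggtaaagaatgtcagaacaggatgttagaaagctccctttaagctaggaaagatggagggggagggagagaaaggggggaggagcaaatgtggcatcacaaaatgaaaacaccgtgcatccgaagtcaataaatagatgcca
Cd5l, chr3:87357631-87357880, plus strand: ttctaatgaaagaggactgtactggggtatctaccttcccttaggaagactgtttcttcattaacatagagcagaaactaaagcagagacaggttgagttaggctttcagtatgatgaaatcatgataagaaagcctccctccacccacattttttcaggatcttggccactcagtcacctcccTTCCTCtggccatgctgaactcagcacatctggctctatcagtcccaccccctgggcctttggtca
The Trem2 window held 1 match each to the AP-1 motif, the PU.1 core and the nuclear receptor half-site. The Cd5l window held 1 match to the PU.1 core, and the Gpnmb window none of the 4 motifs. Of the 9 members with a window in the RefSeq table, 6 had the PU.1 core in at least 1 window, 2 had the AP-1 motif (Trem2 and Plaur), 1 had the half-site and 0 had the E-box. Over 32536 upstream windows of this length, 23.4% held the PU.1 core, 6.73% the AP-1 motif, 14% the half-site and 6.04% the E-box. The matches printed here do not overlap each other. A match is a description of letters, not of a bound site.

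The libraries carried macrophage transcripts, but WT replicates 2, 3 and 4 stood apart from the rest. The sum of 9 macrophage markers was 10535 to 13233 TPM in the other 9 libraries and 2614 to 5416.5 TPM in these 3, where 5 of the 9 markers lay below the other 4 WT libraries and none above. The sum of 11 fibroblast and smooth muscle markers was 4283 to 11124 TPM in the 3 libraries, against 122 to 468 TPM over the remaining WT and 207 to 660.02 TPM over the KO libraries. Of these markers 9 lay above the other WT libraries in the 3, and Lum stayed under 1 TPM in every library. The sum of 10 neutrophil markers was 79.3 to 109 TPM in the 3 libraries, against 1005 to 6263 TPM in the other 9. Marker sums of other cell types reached at most 47.7 TPM in any library for endothelial cells, 21.5 for osteoblasts, 12.8 for mast cells and basophils, 6.83 for B and T cells and 2.41 for dendritic cells. In such bulk samples fewer cells of a type and less RNA per cell cannot be told apart. Smarcd1, the targeted gene, was at 5.99 to 7.58 TPM in KO and 11.6 to 15.6 TPM in WT (limma adjusted p of 0.000744 with 12 libraries). Comparisons of KO with WT use all 12 libraries, or the 9 left without WT replicates 2, 3 and 4. Both are given below for each of the 10 genes. For several other genes only the 9-library value is given, and the 12-library value can differ.

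In neither comparison of KO with WT did any of the 10 genes pass the threshold. With all 12 libraries limma called 0 of 10 at an adjusted p under 0.05, where 0.126% of the 11152 tested genes were called, 0.108% higher and 0.0179% lower in KO, and Cd9 alone had an unadjusted p under 0.05, against 17.5% of all genes. With 9 libraries limma again called 0 of 10, where 2.33% of all genes were called, and Tyrobp, Cd9 and Plaur had an unadjusted p under 0.05, against 18.9% of all genes. The direction of the calls over all genes moved with the scaling: 12 genes were higher and 2 lower in KO with 12 libraries, or 2 and 2 after median-ratio scaling, and with 9 libraries 180 and 80, or 83 and 138. The ranges of KO and WT overlapped for all 10 genes with 12 libraries, where 3.56% of all genes did not overlap, 2.92% higher and 0.637% lower in KO. With 9 libraries Tyrobp alone did not overlap, where 9.17% of all genes did not, 7.09% higher and 2.08% lower in KO. All 10 genes passed the filter on low values (at least 1 TPM in at least 5 libraries).

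**Figure D1:**
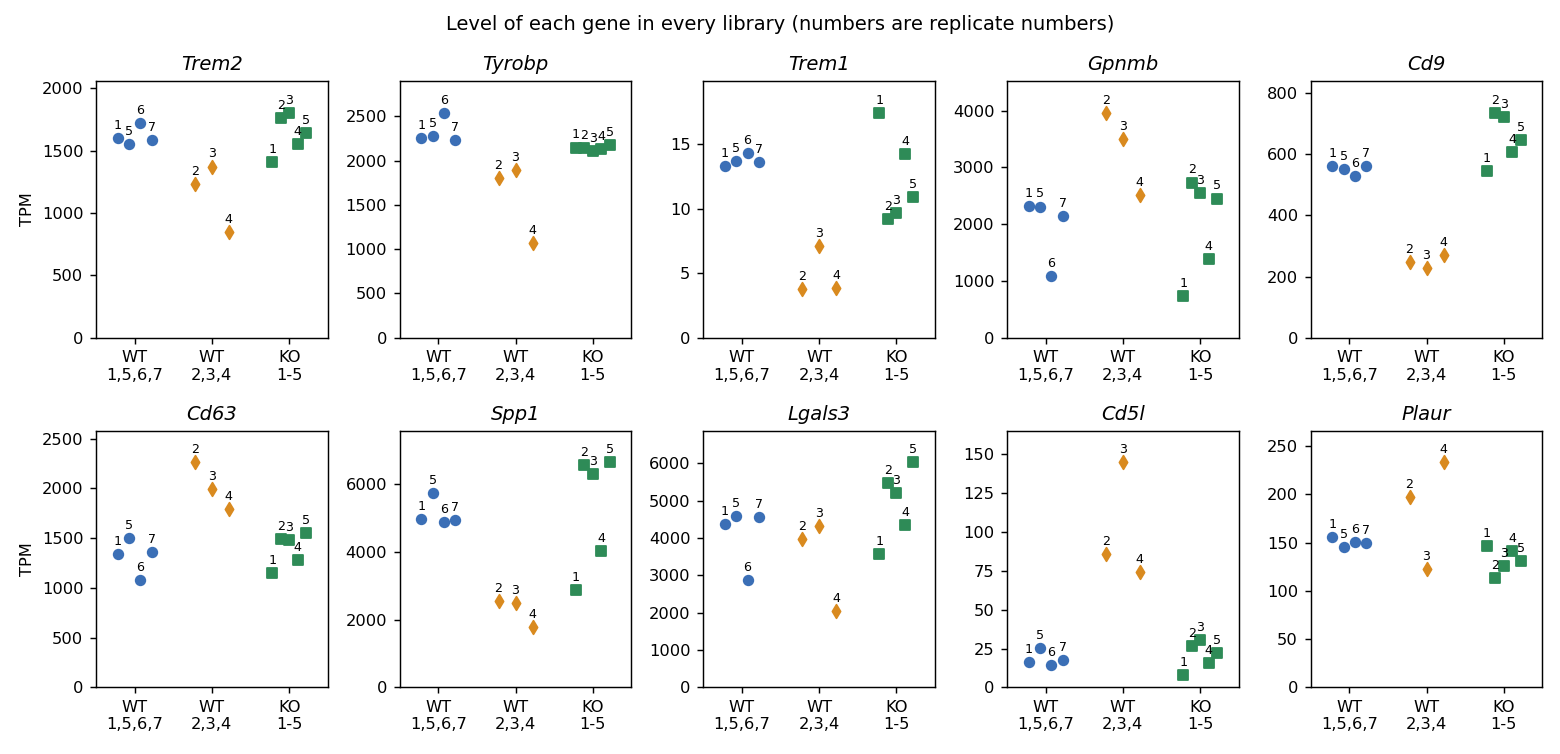
Level of each of the 10 genes in TPM (vertical axes, linear from 0) in every library, 1 panel a gene; circles are WT replicates 1, 5, 6 and 7, diamonds WT replicates 2, 3 and 4, squares KO, and numbers give the replicate. The diamonds lie below all other points for Trem2, Tyrobp, Trem1, Cd9 and Spp1 and above them for Cd63 and Cd5l.

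The receptor Trem2 (ENSMUSG00000023992, chromosome 17, 48346401 to 48354147 in mm10) overlapped between the genotypes and was not called. It was at 1598, 1551, 1722 and 1582 TPM in WT replicates 1, 5, 6 and 7, whereas WT replicates 2, 3 and 4 had 1235, 1372 and 844 TPM. KO replicates 1 to 5 held 1410.1, 1763, 1805, 1550.3 and 1641 TPM. KO thus spanned the 4 WT libraries on both sides, while the other 3 WT libraries lay below every KO library. The log2 fold change of KO over WT, on the log2(TPM + 1) scale used throughout, was 0.01 with 9 libraries, with a 95% confidence interval of -0.15 to 0.17 (limma adjusted p of 0.942). With 12 libraries it was 0.24 (interval -0.11 to 0.58, limma adjusted p of 0.372).

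Tyrobp, the adaptor that Trem2 and Trem1 share (ENSMUSG00000030579, chromosome 7, 30413760 to 30417585), was the most even of the 10 across KO. Its level was 2149, 2147, 2112, 2137 and 2177 TPM in KO replicates 1 to 5 (coefficient of variation 1.09%). WT replicates 1, 5, 6 and 7 held 2254, 2278, 2544 and 2229.6 TPM, all above every KO library, and WT replicates 2, 3 and 4 held 1805, 1897 and 1069 TPM, all below. The 9-library log2 fold change of -0.12 (interval -0.21 to -0.02) did not pass the threshold (limma adjusted p of 0.188), and 2.08% of all genes likewise lay lower in KO without overlap. The 12-library value was 0.14 (limma adjusted p of 0.616). Leaving out WT replicate 4 alone moved it to -0.006.

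Trem1 (ENSMUSG00000042265, chromosome 17, 48232768 to 48246924) lies 99.5 kb from Trem2 on the same strand, and the Trem2 level in TPM was 80.7 to 326 times that of Trem1 over the 12 libraries. WT replicates 1, 5, 6 and 7 lay close together at 13.3, 13.7, 14.3 and 13.7 TPM. KO replicates 1 to 5 were spread around them at 17.5, 9.21, 9.67, 14.2 and 10.9 TPM. KO replicates 1 and 4, the highest of the KO libraries, also had the most neutrophil marker RNA, at 6263 and 4378 TPM for the sum of 10. KO replicates 2 and 3 had 2107 and 1917 TPM of it, more than the 4 WT libraries (1195 to 1547 TPM), but less Trem1. The correlation of Trem1 with the sum was 0.41 over the 9 libraries (Spearman 0.15) and -0.62 without KO replicates 1 and 4. With the fibroblast and smooth muscle sum it was -0.62 (Spearman -0.87), and -0.49 without WT replicate 6 and KO replicate 1. With the macrophage sum it was 0.44 (Spearman 0.68), and 0.67 without WT replicates 5 and 6. The part of neutrophil RNA, or of the other cell types, in these Trem1 values was not tested. The log2 fold change was -0.19 (interval -0.55 to 0.18) with 9 libraries and 0.40 with 12, with limma adjusted p of 0.587 and 0.466. WT replicates 2, 3 and 4, at 3.79, 7.12 and 3.84 TPM, lay below all others.

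Gpnmb, a transmembrane glycoprotein of lysosome-rich cells (ENSMUSG00000029816, chromosome 6, 49036546 to 49070929), had the highest coefficient of variation of the 10 in KO (44.2%) and in WT replicates 1, 5, 6 and 7 (30.3%), but not over all 7 WT libraries (37.0%, against 92.1% for Cd5l). WT replicates 1, 5, 6 and 7 had 2322, 2309.9, 1081 and 2139.8 TPM of it, below the 3964, 3504 and 2518 TPM of WT replicates 2, 3 and 4. In KO replicates 1 to 5 it was at 727, 2732, 2544, 1389 and 2450.6 TPM. Low libraries occurred in both genotypes (WT replicate 6, KO replicates 1 and 4). Of the other 6 of these 9 libraries, KO replicates 2, 3 and 5 lay above WT replicates 1, 5 and 7. The 9-library log2 fold change was -0.09 with an interval of -0.996 to 0.82 (limma adjusted p of 0.935), or 0.233 without KO replicate 1, and the 12-library value was -0.43 (adjusted p of 0.466).

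The tetraspanins Cd9 and Cd63, 4-pass membrane proteins of the cell surface and of endosomes, differed in their patterns. Cd9 (ENSMUSG00000030342, chromosome 6, 125460266 to 125494791) was at 563, 551, 528 and 562 TPM in WT replicates 1, 5, 6 and 7 and at 546, 737, 721, 608 and 647 TPM in KO replicates 1 to 5. All KO libraries except replicate 1 lay above all WT libraries, and WT replicates 2, 3 and 4 were far below at 247, 229 and 269 TPM. Its log2 fold change was 0.23 ± 0.0823 (SE) with 9 libraries and 0.73 ± 0.267 (SE) with 12, with limma adjusted p of 0.168 and 0.237. Leaving out KO replicate 1 from the 9 gave 0.295 and an adjusted p of 0.0463, the single case among all settings in which a member was called. Cd63 (ENSMUSG00000025351, chromosome 10, 128900989 to 128912822) lay between 1079.95 and 1502 TPM in WT replicates 1, 5, 6 and 7 and between 1149.8 and 1548 TPM in KO. It was higher in WT replicates 2, 3 and 4, with 2264, 1997 and 1798 TPM. Its log2 fold change was 0.07 with 9 libraries (interval -0.18 to 0.32) and -0.19 with 12 (limma adjusted p of 0.764 and 0.478).

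Plaur, the receptor for the plasminogen activator urokinase (ENSMUSG00000046223, chromosome 7, 24462484 to 24475968), was at 156, 145, 150.04 and 149.5 TPM in WT replicates 1, 5, 6 and 7. KO replicates 1 to 5 held 147, 113, 126, 142 and 131 TPM. Among these 9 libraries, KO replicate 1 alone reached into the WT range, just above WT replicate 5. On the log2 scale KO differed from WT by -0.19 ± 0.0697 (SE) over 9 libraries and by -0.30 ± 0.14 (SE) over 12, for limma adjusted p of 0.178 and 0.289. WT replicates 2, 3 and 4 lay on both sides of the rest, at 197, 123 and 233 TPM.

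Among the secreted products, Spp1 (osteopontin, ENSMUSG00000029304, chromosome 5, 104435118 to 104441050) was among the most abundant transcripts of these cells, ranking between 8 and 69 among all genes over the libraries. It was at 4969, 5729, 4871 and 4941 TPM in WT replicates 1, 5, 6 and 7 and at 2867, 6559, 6291, 4032 and 6649 TPM in KO replicates 1 to 5. KO libraries therefore lay on both sides of these 4 WT libraries, replicates 2, 3 and 5 above and replicates 1 and 4 below. WT replicates 2, 3 and 4 were lower than all of them, at 2549, 2495 and 1797 TPM. The log2 fold change was -0.03 (interval -0.57 to 0.51) with 9 libraries and 0.48 with 12 (limma adjusted p of 0.964 and 0.381).

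Lgals3 (galectin 3, a lectin that binds galactose-containing sugars, ENSMUSG00000050335, chromosome 14, 47367751 to 47386160) ranked between 10 and 58. Its levels were 4389, 4603, 2889.97 and 4574 TPM in WT replicates 1, 5, 6 and 7, and 3974, 4334 and 2046 TPM in WT replicates 2, 3 and 4. KO replicates 1 to 5 held 3564, 5472, 5204, 4341 and 6033 TPM. KO replicates 2, 3 and 5 lay above all WT libraries, and KO replicates 1 and 4 lay among them. The log2 fold change was 0.26 with 9 libraries (interval -0.14 to 0.66) and 0.39 with 12 (limma adjusted p of 0.481 and 0.32).

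Cd5l, a secreted scavenger receptor protein of tissue macrophages (ENSMUSG00000015854, chromosome 3, 87357881 to 87371073), was scarce outside WT replicates 2, 3 and 4. It was at 16.1, 25.2, 14.2 and 17.7 TPM in WT replicates 1, 5, 6 and 7 and at 8.03, 26.9, 30.4, 15.9 and 21.9 TPM in KO replicates 1 to 5. The genotypes overlapped, with a 9-library log2 fold change of 0.07 (interval -0.69 to 0.83, limma adjusted p of 0.938). WT replicates 2, 3 and 4 held 85.6, 145 and 74.5 TPM, and with them the value was -0.95 (interval -2.27 to 0.37, adjusted p of 0.354).

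**Figure D2:**
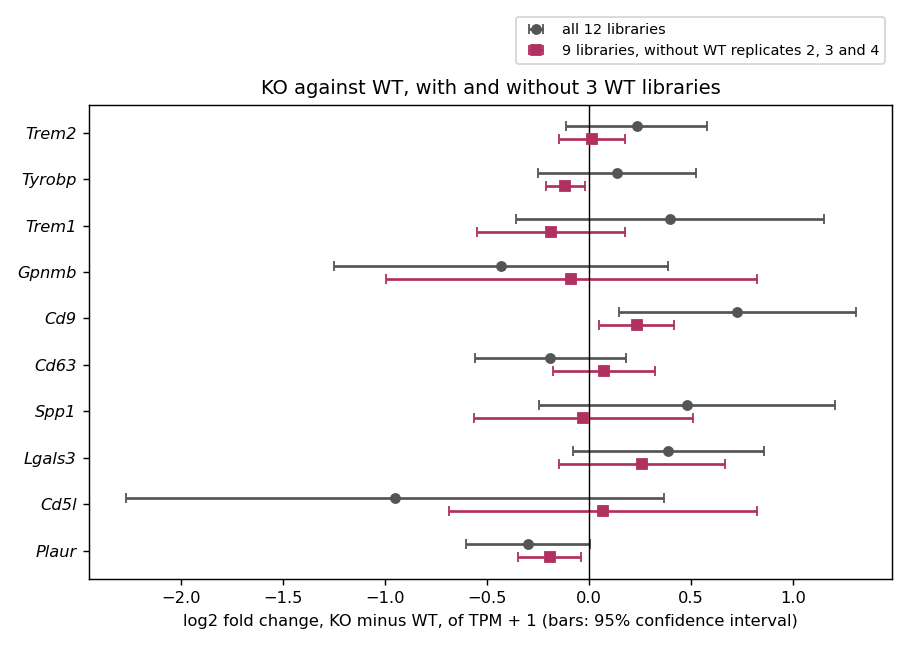
Log2 fold change of KO over WT on the log2(TPM + 1) scale (horizontal axis) for the 10 genes (vertical axis), with 95% confidence intervals from limma; circles use all 12 libraries, squares the 9 left without WT replicates 2, 3 and 4. Tyrobp, Trem1, Cd63, Spp1 and Cd5l change sign between the 2 sets, and no gene passes the adjusted threshold in either.

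The 10 genes did not move as 1 group in WT replicates 2, 3 and 4. These libraries were singled out by measured values, so the comparison with the other WT libraries is a description without a test. Trem2, Tyrobp, Trem1, Cd9 and Spp1 lay below all 4 other WT libraries, Gpnmb, Cd63 and Cd5l above, and Lgals3 and Plaur overlapped with them. Those are 8 of 10 genes without overlap, where 58.2% of all tested genes did not overlap, 29.9% above and 28.3% below. Set against all 9 other libraries, 7 of 10 genes did not overlap (Gpnmb no longer), beside 49.1% of all genes, 23.6% above and 25.5% below. The gap to the other WT libraries was widest for Cd5l, whose lowest value in the 3 libraries was 2.95 times the highest of the other WT libraries. For Cd9, Spp1 and Trem1 the lowest of the other WT libraries was 1.96, 1.91 and 1.87 times the highest of the 3. For Trem2, Tyrobp, Gpnmb and Cd63 the corresponding ratio was 1.13, 1.175, 1.085 and 1.2. Beside these values stand the lower macrophage markers and higher fibroblast and smooth muscle markers given above. How far they account for the levels was not tested.

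Among the 9 other libraries, Gpnmb, Cd63, Lgals3, Spp1 and Cd5l varied together, across both genotypes. Pearson correlations of log2(TPM + 1) between pairs of these 5 genes were 0.67 to 0.95, and those of Trem1 with the 5 were -0.87 to -0.74. Trem2 correlated at -0.84 with Trem1, at 0.80 with Spp1 and at 0.74 with Cd5l. With its own adaptor Tyrobp, whose highest value was only 1.2 times its lowest over the 9 libraries, it correlated at 0.13. Cd9 and Plaur correlated at -0.94. These are descriptions over 9 libraries that share the TPM scale, with KO and WT pooled. The low libraries for Gpnmb, Cd63 and Lgals3 were WT replicate 6 and KO replicates 1 and 4, and the same 3 had the lowest sums of the 11 fibroblast and smooth muscle markers, at 122, 207 and 297 TPM against 429.9 to 660.02 TPM in the other 6. Across the 9 libraries the correlation with that sum was 0.95 for Lgals3, 0.94 for Cd63 and 0.85 for Gpnmb (Spearman 0.92, 0.82 and 0.82). Without WT replicate 6 and KO replicate 1, the libraries farthest from the median of the sum, it was 0.77, 0.74 and 0.78. For Spp1 it was 0.62 (Spearman 0.83) and 0.79 without these libraries, and for Cd5l 0.66 (Spearman 0.72) and 0.36. For Trem2 it was 0.19 (Spearman 0.45), and 0.35 without these libraries. For Gpnmb, Cd63, Lgals3, Spp1 and Cd5l the correlation with the neutrophil sum was -0.63, -0.4, -0.24, -0.77 and -0.55. Without KO replicates 1 and 4, which held the most neutrophil marker RNA, it was 0.4, 0.22, 0.25, 0.26 and 0.54. With the macrophage sum it was -0.47, -0.71, -0.85, -0.2 and -0.36. Without WT replicates 5 and 6 that was -0.41, -0.69, -0.77, -0.61 and -0.67. The part of other cell types in these levels was not tested.

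**Figure D3:**
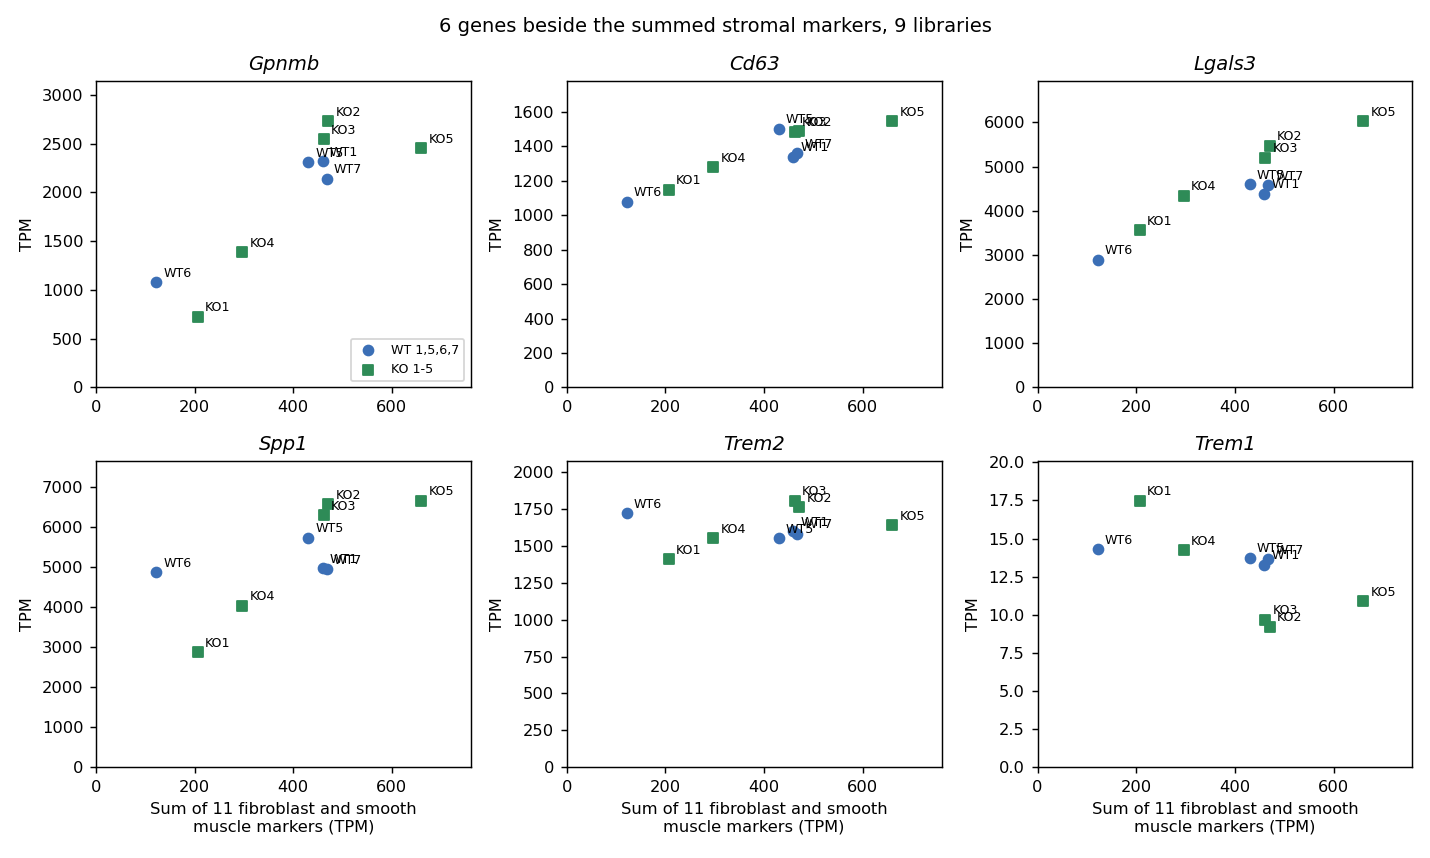
Level of 6 genes in TPM (vertical axes) against the summed TPM of 11 fibroblast and smooth muscle markers (horizontal axes) in the 9 libraries without WT replicates 2, 3 and 4; circles are WT, squares KO. WT replicate 6 and KO replicates 1 and 4 lie at the left, at 122 to 297 TPM on the horizontal axis, with the lowest Gpnmb, Cd63 and Lgals3, whereas WT replicate 6 is at 1722 TPM for Trem2, above the other 3 WT libraries.

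Osteoclast genes were examined beside Gpnmb and Cd63, since osteoclasts also carry these proteins. The sum of 7 osteoclast markers was 54.9 to 164 TPM in WT replicates 1, 5, 6 and 7, 142 to 164 TPM in WT replicates 2, 3 and 4 and 64.8 to 189 TPM in KO. Its correlation over the 9 libraries was 0.95 with Cd63 (Spearman 0.95) and 0.89 with Gpnmb (Spearman 0.62). Without WT replicate 6 and KO replicate 1 it was 0.82 and 0.75. The tie was not particular to these genes. For Lgals3, Spp1 and Cd5l the correlation was 0.89, 0.73 and 0.73 (Spearman 0.87, 0.77 and 0.7). Without the same libraries it was 0.6, 0.76 and 0.43. For Trem2, Tyrobp, Trem1, Cd9 and Plaur it was 0.23, -0.4, -0.59, 0.44 and -0.35 over the 9 libraries. The markers differed in direction, with 9-library log2 fold changes of 0.23 for Acp5, -1.02 for Ctsk, 0.997 for Mmp9 and 0.28 for Dcstamp (limma adjusted p of 0.777, 0.237, 0.249 and 0.397). Mmp9 was at 48.65 TPM in KO replicate 5, against 9.22 to 10.13 TPM in the other KO libraries. Calcr, Ocstamp and Oscar, markers of mature osteoclasts, stayed under 1 TPM in all 12 libraries.

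The genes whose levels were most like those of Trem2 over the 9 libraries were Sgtb, Daglb, Ctso, Lgmn and Cd276, with Pearson correlations of 0.968 to 0.975 and of 0.91 to 0.95 without KO replicates 1 and 3. Lgmn, which encodes the lysosomal protease legumain, was the most abundant of them, at 899 to 1001 TPM in WT replicates 1, 5, 6 and 7 and 751 to 1098 TPM in KO. Sgtb did not share the pattern in WT replicates 2, 3 and 4, where it was at 2.09 to 4.23 TPM, above its 1.08 to 1.9 TPM elsewhere, while Trem2 was low. Daglb and Lgmn lay below the other 9 libraries there, as Trem2 did, at 9.59 to 12.87 and 421.57 to 621.58 TPM. Ctso and Cd276, at 13.6 to 19.22 and 9.55 to 12.93 TPM, lay below the other WT libraries but overlapped with KO. The genes most like Gpnmb were Copz2, C77080 and Mmp12, at 0.992 to 0.994. Mmp12, the macrophage elastase, ran from 558 to 1512 TPM in WT replicates 1, 5, 6 and 7 and from 313 to 2076 TPM in KO, but lay at 490.3 to 551 TPM in WT replicates 2, 3 and 4, where Gpnmb was high. Copz2 and C77080 were high there too, at 32.46 to 51.82 and 27.67 to 36.01 TPM. In the other 9 libraries they reached at most 15.08 and 14.49 TPM.

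Genes around Trem2 and Tyrobp were read from fixed lists. Of 19 tested genes that act downstream of Tyrobp, 2 rose with 9 libraries and 0 with 12, and the median log2 fold change was 0.08 and 0.39, against 0.05 and 0.04 over all genes. Over all tested genes 1.61% rose with 9 libraries and 0.108% with 12. Syk, the kinase that binds Tyrobp, was at 73.0 ± 2.79 TPM (SD, n = 4) in WT and rose to 83.2 ± 0.576 TPM (SD, n = 5) in KO. The limma estimate was 0.19 in log2 units, with an adjusted p of 0.0228. Vav3 was at 16.6 ± 0.774 TPM (SD, n = 4) in WT and rose to 19.98 ± 0.68 TPM (SD, n = 5) in KO, for a limma estimate of 0.25 and an adjusted p of 0.0247. Neither call held after median-ratio scaling, nor in 5 and 5 of the 9 cases of leaving out 1 library (adjusted p up to 0.0675 and 0.084). WT replicates 2, 3 and 4 were at 79.1 to 103 TPM for Syk, reaching over the KO range, and 16 of the 19 genes lay below the other WT libraries in them, as 28.3% of all genes did. Of 10 tested receptors of the Trem family or paired with Tyrobp, 0 were called in either set. The most abundant, Clec5a and Cd300lb, had 9-library log2 fold changes of -0.44 and 0.10 (limma adjusted p of 0.0752 and 0.244). Their 12-library values were 0.35 and 0.66 (limma adjusted p of 0.606 and 0.286). The proteases Adam10 and Adam17, which cut Trem2 from the cell surface, were at -0.02 and -0.003 with 9 libraries (limma adjusted p of 0.909 and 0.988). With 12 they were at 0.32 and 0.35 (limma adjusted p of 0.333 and 0.328).

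Other genes of lipid-associated macrophages gave 2 rises and 1 fall among 27 tested with 9 libraries, and 0 calls with 12, where 0.717% of all genes fell with 9 libraries. Apoe, also on this list, had no match by symbol and is not among the 27. The median log2 fold change was 0.09 with 9 libraries and 0.23 with 12, and 19 of the 27 values were positive with 9, against 7532 of 11152 over all genes. Lpl, the lipoprotein lipase, rose by 0.92 in log2 units (limma, adjusted p of 0.0408), from 464 to 723 TPM in WT replicates 1, 5, 6 and 7 to 736 to 1361 TPM in KO. Nceh1, a hydrolase of cholesterol esters, rose by 0.28 (adjusted p of 0.0388). Ch25h, which makes 25-hydroxycholesterol, fell by 1.11 (adjusted p of 0.0193), from 127 to 220.3 TPM to 55.7 to 95.6 TPM, but it was at 0.92 to 1.61 TPM in WT replicates 2, 3 and 4 and its 12-library value was 1.52 (limma adjusted p of 0.481). Under the other settings run, Lpl and Nceh1 each lost the call in 11 of 15 and Ch25h in 5 of 15 (limma adjusted p up to 0.127, 0.112 and 0.0542 when 1 library was left out).

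**Figure D4:**
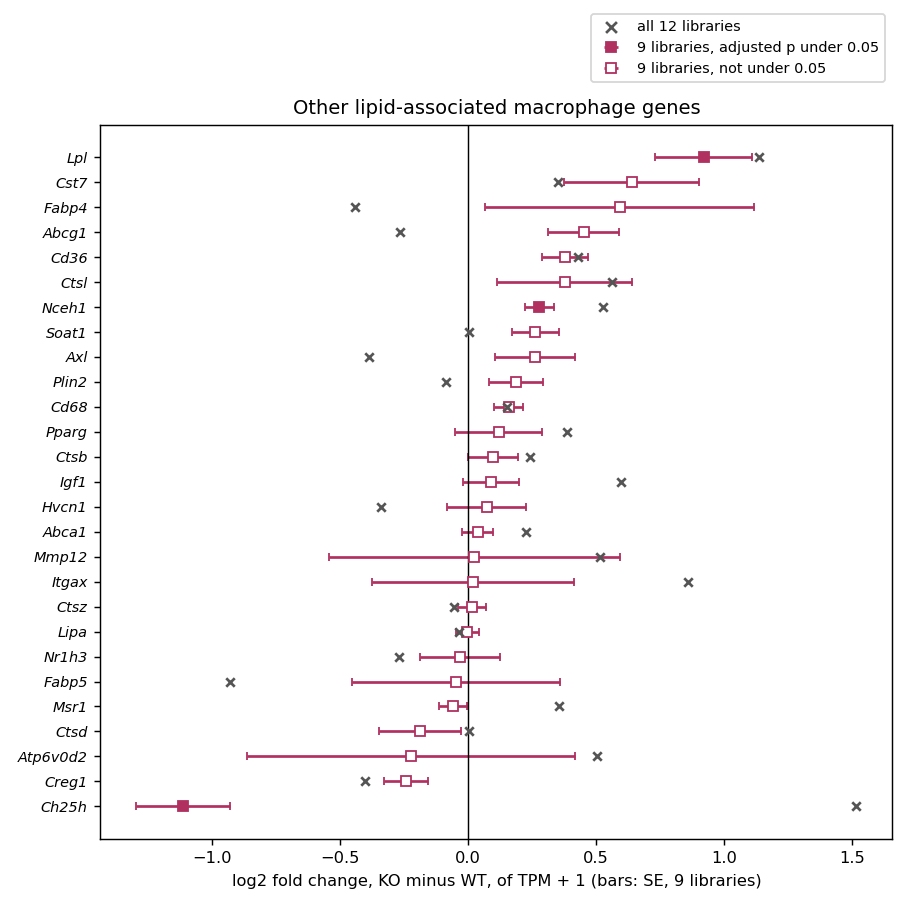
Log2 fold change of KO over WT on the log2(TPM + 1) scale (horizontal axis) for 27 other lipid-associated macrophage genes (vertical axis); squares with SE bars use 9 libraries, filled where the adjusted p is under 0.05, and crosses use all 12. Lpl at 0.92, Nceh1 at 0.28 and Ch25h at -1.11 are filled, and Ch25h lies at 1.52 with 12 libraries.

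Partners of the other members were read from fixed lists in the same way. Over all tested genes 1.61% rose and 0.717% fell with 9 libraries, and 0.126% were called with 12. At such shares a count of 0 in a short list says little about its genes. Of 8 tested receptors for osteopontin, Cd44 rose by 0.25 and Itgb5, an integrin beta chain, fell by 0.29 with 9 libraries (limma adjusted p of 0.0246 and 0.00814), and 0 were called with 12. Itgb5 was at 405 to 424 TPM in WT replicates 1, 5, 6 and 7, 316 to 355 TPM in KO and 134 to 157 TPM in WT replicates 2, 3 and 4, so that its 12-library value was 0.36 (limma adjusted p of 0.497). Its 9-library call held in all 9 cases of leaving out 1 library, whereas that of Cd44 was lost in 6 of 9 (adjusted p up to 0.0834) and after median-ratio scaling. Cd82 was the 1 of 9 tested tetraspanins that was called, with a rise of 0.28 (adjusted p of 0.0228) that was lost in 6 of 9 such cases (adjusted p up to 0.0782). Of 6 tested genes of the urokinase system 0 were called in either set, and Plau, the ligand of Plaur, was at 949 to 993 TPM in WT replicates 1, 5, 6 and 7 and 1014 to 1583 TPM in KO (9-library limma adjusted p of 0.0821). The integrin chain Itgb2 had a log2 difference of 0.10 (limma, adjusted p of 0.1). Of 5 other galectins 0 were called. Lgals1, at 3076 to 3194 TPM in WT replicates 1, 5, 6 and 7 and 2726 to 2971 TPM in KO, had a limma adjusted p of 0.0505, and Lgals3bp one of 0.773. Of 4 MiT/TFE factors 0 were called, with Tfe3 at -0.13 and Tfeb at 0.13 with 9 libraries (limma adjusted p of 0.231 and 0.395). Of 8 tested genes of resident macrophages 0 were called. The scavenger receptor gene Marco, high in WT replicates 2, 3 and 4 together with Cd5l (1186 to 2043 TPM, against 0.13 to 2.64 TPM elsewhere), and the folate receptor gene Folr2, low in them (32.4 to 69.0 TPM, against 567.7 to 945 TPM), had 9-library log2 fold changes of 0.03 and 0.19 (limma adjusted p of 0.98 and 0.53). With 12 libraries Marco was at -4.01 and Folr2 at 1.79 (limma adjusted p of 0.315 and 0.293).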

How the data were processed

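Total RNA of 12 libraries was sequenced, and the authors deposited 1 table of TPM values for 23438 Ensembl genes. Per the submitters' processing notes, bcl2fastq, Salmon 1.2.0 and the mm10 build were used. The annotation, the treatment of strand and the step from transcripts to genes are not stated in those notes or the labels. The listed genes summed to 940127 to 947987 TPM per library. Depth is unknown from TPM. A rise of abundant transcripts lowers all other TPM values. The table's header names no unit, and TPM is inferred from Salmon and these sums.

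Symbols came from GENCODE M21 (23423 IDs matched), and coordinates from the same release. Exons of Cd9 and Spp1 overlap those of other annotated genes, so their levels are less certain. Libraries were assigned to groups by their titles in the labels.

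KO was compared with WT by limma-trend (limma 3.58.1, R 4.3.3) on log2(TPM + 1), a pseudocount of 1, over the 11152 genes that reached 1 TPM in 5 or more libraries. P-values were adjusted by Benjamini-Hochberg over these genes, with 0.05 as the threshold. The fit was tested on simulated data. The 10 genes and all lists were chosen with earlier results of these data known, as was the set of 9 libraries. Named list genes are up to 3 called members per direction, otherwise the 2 with the highest mean level. Genes most like a member were ranked by Pearson correlation over 9 libraries, without predicted genes and pseudogenes. Mmp12 is also a list gene. Listed genes whose symbol had no match (Apoe, Sirpb1a and Sirpb1b) are not analysed here. Upstream windows came from RefSeq. Alternatives were other scaling, no filter, a pseudocount of 0.1, library weights, a submission number block, a replicate block and leaving out each library.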

Additional observations from a re-analysis of the deposited data

Results flagged for a closer look

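In 4 of the 30 groups examined (each of the 10 genes in 7 WT, 5 KO and the 4 WT libraries left without replicates 2, 3 and 4), 1 library lay far from the others by Dixon's criterion, which chance meets in about 1 of 20 groups. All 4 were among the groups of 4 WT libraries. The 30 groups are not independent, since the 4 WT libraries are part of the 7 and several of the 10 genes vary together. The count is therefore not one of separate events. WT replicate 6 was the lowest for Gpnmb at 1081 TPM and for Lgals3 at 2889.97 TPM, and the highest for Tyrobp at 2544 TPM. WT replicate 5 was the highest for Spp1 at 5729 TPM. WT replicate 6 also held the lowest sum of fibroblast and smooth muscle markers, at 122 TPM, and the highest sum of macrophage markers, at 13233 TPM. The part of these in its Gpnmb, Lgals3 and Tyrobp values was not tested.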

How the results depend on the processing

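With 12 libraries 0 of the 10 genes were called under any of the 20 other settings. With 9 libraries 0 were called in 13 of 14, and leaving out single libraries gave 0 to 1 (Cd9 without KO replicate 1). The number of all genes called with 12 libraries was 14. It was 4 with median-ratio scaling, 759 with library weights, 3 with the submission number block (1 to 5 against 6 to 12, an order that no label calls a batch) and 260 without WT replicates 2, 3 and 4, and 2 (without KO replicate 5) to 36 (without WT replicate 6) without single libraries. With 9 libraries it was 260, or 758 with library weights, 132 with the submission number block, and 51 (without WT replicate 1) to 462 (without WT replicate 6) without single libraries. The replicate block, on the 10 libraries whose numbers occur in both genotypes, gave 0 calls in limma among all genes, with 3706 at an unadjusted p under 0.05. The unblocked fit of those 10 libraries, added after seeing the data, gave 13. Correlations of the deviations of same-numbered libraries were -0.224 to 0.222, and the number's own partner was the best match for 1 of 5 WT and 2 of 5 KO libraries, so the numbers were not taken as pairs.

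Some log2 fold changes turned sign. With 12 libraries, library weights gave -0.073 for Tyrobp, -0.152 for Trem1, 0.014 for Cd63 and 0.025 for Cd5l. Leaving out WT replicates 2, 3 and 4 gave -0.115, -0.186, 0.075 and 0.07 for these and -0.029 for Spp1, and without WT replicate 4 alone Tyrobp was at -0.006 (up to 0.202 without other single libraries). With 9 libraries, median-ratio scaling gave -0.034 for Trem2, and Spp1 was at 0.009 with library weights and 0.007 with the submission number block. Over leaving out single libraries from the 9, log2 fold changes spanned -0.024 to 0.065 for Trem2, -0.352 to 0.233 for Gpnmb, -0.131 to 0.173 for Spp1, -0.019 to 0.141 for Cd63 and -0.096 to 0.353 for Cd5l. With all 12 libraries, a setting added after seeing the data, Ch25h was at 1.518 and Itgb5 at 0.361, opposite in sign to the 9-library values. Among the list genes called with 9 libraries, Itgb5 kept its call in 14 of 15 settings, Ch25h in 10, Cd82 and Syk in 8, Vav3 in 7, Cd44 in 6, and Lpl and Nceh1 in 4. TPM sets no depth limit that could be stated for any gene.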

Other observations

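The 10 genes together made up 1.33% to 2.26% of all listed TPM in the KO libraries, 1.57% to 1.98% in WT replicates 1, 5, 6 and 7, and 1.13% to 1.74% in WT replicates 2, 3 and 4, with Spp1 and Lgals3 as the most abundant outside WT replicates 2, 3 and 4. The ratio of Trem2 to its adaptor Tyrobp, which TPM allows to be read per length, was 0.656, 0.821, 0.854, 0.726 and 0.754 in KO replicates 1 to 5. It was 0.709, 0.681, 0.677 and 0.71 in WT replicates 1, 5, 6 and 7 and 0.684, 0.723 and 0.79 in WT replicates 2, 3 and 4, so that all WT libraries lay inside the KO range for this ratio. KO replicates 2, 3, 4 and 5 lay above WT replicates 1, 5, 6 and 7, and KO replicate 1 below them. WT replicate 4 lay above KO replicates 4 and 5. This ratio was computed after the values were seen and was not tested. The ratio of Gpnmb to Trem2 was 3.21, 2.55 and 2.98 in WT replicates 2, 3 and 4, against 0.516 to 1.55 in the other 9. It too was computed after the values were seen and was not tested. It divides a gene above the other WT libraries in these 3 by a gene below them. Its separation of them therefore adds nothing to the single genes. Of all tested genes, 49.1% did not overlap between these 3 libraries and the other 9.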
